A study of Homo sapiens with 8 samples.

Results

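The mRNAs of 9 genes that write, copy, erase or read DNA methylation were followed in AGS cells kept with podofilox and in control cells. The genes were UHRF1, UHRF2, DNMT1, DNMT3A, DNMT3B, TET1, TET2, TET3 and MBD2. They were taken by symbol from the annotation of the array, which gave 31 probe sets (groups of probes read as 1 value) assigned to a single gene, of 44988 such probe sets on the array, and 9 of the 18132 genes they cover. All 31 were measured on every array and none was filtered out. AGS is an established human cell line from a gastric adenocarcinoma. Podofilox (podophyllotoxin), made by plants, is a tubulin ligand that keeps microtubules from assembling. The podofilox group was 4 arrays of AGS cells treated at 3.4 nM for 72 hours, and the control group was 4 arrays of AGS cells without podofilox. Both groups were grown in the same medium with serum and antibiotics. The labels give the 72 hours for podofilox cells only, so whether the control cells were kept for the same time is not known. The labels do not say whether control cells received the solvent, or whether the arrays of a group came from separate cultures, so the p-values reflect how far these arrays scatter, and that scatter may be technical. All cells belong to 1 line.

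Methyl groups on cytosines of CpG dinucleotides help to keep genes silent, and they are lost by dilution at each round of replication unless they are copied. UHRF1 recognises the hemimethylated DNA behind the replication fork and, by marking histone H3 and the clamp-associated protein PAF15 with ubiquitin, brings in DNMT1, which methylates the new strand. DNMT3A and DNMT3B place methylation on unmethylated DNA, TET1, TET2 and TET3 oxidise methylcytosine as a step in its removal, and MBD2 binds methylated CpG and carries the NuRD repressor complex there. UHRF1 is known to be abundant in dividing cells and in many tumours, gastric cancer among them, while its paralog UHRF2 does not replace it in copying methylation. The arrays measured mRNA, not DNA methylation.

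Values are log2 expression, a difference is podofilox minus control, and errors of means are standard deviations (SD). A probe set rose or fell if limma's two-sided p, adjusted by Benjamini-Hochberg over the 44988 single-gene probe sets, was under 0.05. Among the 31 probe sets, 14 fell, 1 rose and 16 did not pass the test. Over all single-gene probe sets 10.2% fell and 7.83% rose, and the median difference was -0.16 over the 31 against 0.01 over all. The falls lay in UHRF1, DNMT1, DNMT3A, DNMT3B and TET3, and the rise in a probe set of TET2. DNMT3B alone supplied 11 of the 31 probe sets and 7 of the 14 falls, and some of those 7 calls were fragile, as given below. Probe sets of the same gene are not independent, and the genes were chosen with earlier results of these data known. The comparison of the 31 with all single-gene probe sets is therefore only descriptive. Probe sets of UHRF2, TET1 and MBD2 passed in neither direction. Every podofilox array was lower than every control array on 14 of the 31 probe sets and above them on 2, where all single-gene probe sets gave 13.8% and 10.5%. Of the 18 probe sets brighter than the median of all (6.45), 13 fell and 0 rose (14 fell and 0 rose at an unadjusted p under 0.05). Of the 13 dimmer ones 1 fell and 1 rose. Bright probe sets were also called often over the whole array. In a test of only the 22494 probe sets above that median, 5272 fell and 3673 rose. By that test 14 of the 18 fell and 0 rose.

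**Figure D1:**
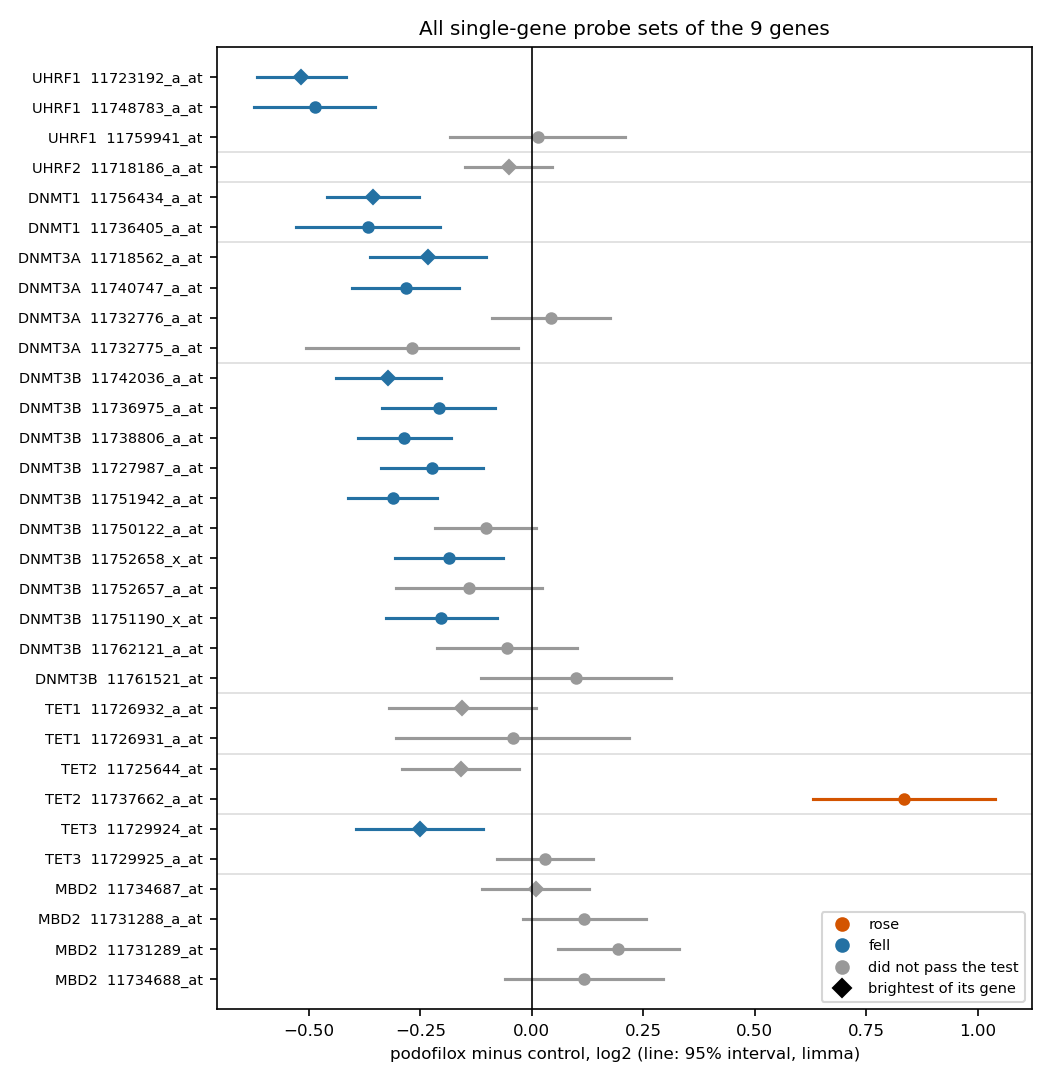
Difference between podofilox and control arrays (log2, x axis) for each of the 31 probe sets, grouped by gene and ordered by signal within a gene. Lines are limma's 95% intervals, diamonds mark the brightest probe set of a gene, and colour gives the call. UHRF1 reaches -0.52 at the left, and the dimmer TET2 probe set stands alone at the right at 0.83.

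The sequence before the start of transcription is shown for the UHRF1 and UHRF2 genes, a pair of paralogs of which 1 fell, and for DNMT1 and DNMT3B, the methyltransferases whose brightest probe sets had the lowest differences. Each run is the 250 bases before the first listed RefSeq start (build GRCh38.p14), read 5′ to 3′ on the strand of the gene. Capitals mark a match to a word bound by E2F factors, which drive genes of DNA synthesis. The regions are chr19:4909251-4909500 on the + strand for UHRF1, chr9:6412949-6413198 on the + strand for UHRF2, chr19:10194954-10195203 on the - strand for DNMT1 and chr20:32779602-32779851 on the + strand for DNMT3B.
UHRF1: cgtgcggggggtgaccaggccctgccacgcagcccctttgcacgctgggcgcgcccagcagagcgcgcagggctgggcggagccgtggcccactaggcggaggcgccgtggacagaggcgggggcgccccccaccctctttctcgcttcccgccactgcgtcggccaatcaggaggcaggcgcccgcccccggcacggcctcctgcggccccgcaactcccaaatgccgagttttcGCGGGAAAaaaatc
UHRF2: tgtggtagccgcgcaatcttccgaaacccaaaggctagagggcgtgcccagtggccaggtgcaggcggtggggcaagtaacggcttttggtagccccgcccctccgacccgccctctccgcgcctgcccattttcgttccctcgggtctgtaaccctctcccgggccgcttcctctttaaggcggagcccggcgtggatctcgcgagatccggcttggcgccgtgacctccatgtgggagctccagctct
DNMT1: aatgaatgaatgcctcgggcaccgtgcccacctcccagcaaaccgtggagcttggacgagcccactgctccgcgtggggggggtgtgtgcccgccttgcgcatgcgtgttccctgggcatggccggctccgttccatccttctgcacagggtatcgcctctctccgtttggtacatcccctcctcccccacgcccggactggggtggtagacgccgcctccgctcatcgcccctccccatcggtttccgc
DNMT3B: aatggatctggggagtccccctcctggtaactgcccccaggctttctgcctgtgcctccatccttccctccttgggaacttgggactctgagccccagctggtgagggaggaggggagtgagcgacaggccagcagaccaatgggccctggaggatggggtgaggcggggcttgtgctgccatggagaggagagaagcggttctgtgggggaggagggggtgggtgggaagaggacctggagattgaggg

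The words searched on both strands were TTTCCCGC, TTTCGCGC, TTTGCCGC and TTTGGCGC, and no match overlaps a CCAAT box. UHRF1 has 1 match in this window, beginning 14 bases before the start, and 1 more before the second of its 3 listed starts. The windows of the 8 other genes (17 in all) hold 0. Among all 35116 RefSeq promoter windows, 2.79% hold such a word, as do 3.51% of the 20403 windows of genes on the array. Of 29 windows of replication fork genes 9 do (31.0%). These 29 cover 24 of the 28 replication fork genes listed below. The UHRF1 window also holds a CCAAT box, as does that of DNMT3B (both strands searched; 32.0% of all windows hold one). The UHRF1 window has 28 CpG, that of UHRF2 23, that of DNMT1 21 and that of DNMT3B 3, against a median of 11 over all windows. For windows of genes on the array the median is 17, with quartiles of 6 and 26. DNMT3B has 1 listed start, and whether AGS cells use that start or another was not measured. Its window may therefore not be the promoter behind the DNMT3B values. A match is only a match of letters, and binding was not measured here.

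UHRF1 fell by 1.43-fold. Its brightest probe set read 8.74, 8.69, 8.73 and 8.65 on podofilox arrays 1 to 4, and 9.21, 9.27, 9.19 and 9.21 on control arrays 1 to 4. The groups are separated by a gap wider than the spread within either of them. The means were 8.70 ± 0.04 with podofilox and 9.22 ± 0.04 in control cells (SD, n = 4 each), a difference of -0.52 (SE 0.04, 95% interval -0.62 to -0.42, limma adjusted p = 6.76e-05). Of the 44988 probe sets 309 had a difference at least as low. The next probe set fell by 0.49 on the log2 scale (SE 0.06, limma adjusted p = 0.000522), with 7.45, 7.56, 7.36 and 7.43 in podofilox cells and 7.81, 7.95, 7.99 and 7.99 in control cells. The third, dim probe set overlapped between the groups, at 5.07, 5.15, 5.11 and 5.50 with podofilox against 5.20, 5.14, 5.16 and 5.27 without, and did not pass the test (0.01, limma adjusted p = 0.938). Its signal lies in the lower part of the array's range, and the table carries no detection calls. Between arrays numbered 1 and 2 of each group the brightest probe set differed by -0.53, and between those numbered 3 and 4 by -0.51. In RNA of whole cultures, fewer cells that express a gene and less RNA per cell cannot be told apart.

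UHRF2, the paralog, overlapped between the groups. It read 9.25, 9.16, 9.18 and 9.24 on podofilox arrays and 9.26, 9.28, 9.29 and 9.22 on control arrays, and its difference of -0.05 did not pass the test (95% interval -0.15 to 0.05, limma adjusted p = 0.470). Within arrays, the change of UHRF1 minus that of UHRF2 was -0.47 (SE 0.04). The two-sided exact permutation p was 0.0286, the lowest possible with 70 arrangements. Adjusted over the 8 pairs of genes compared, that p was 0.114. An adjusted p could pass only if 5 or more of the 8 pairs reached the lowest p, so that 0 passed says little about the pairs. Of the 8 pairs, 2 reached the smallest unadjusted p, the other being UHRF1 against DNMT1 (-0.16, SE 0.04, exact permutation p = 0.0286).

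**Figure D2:**
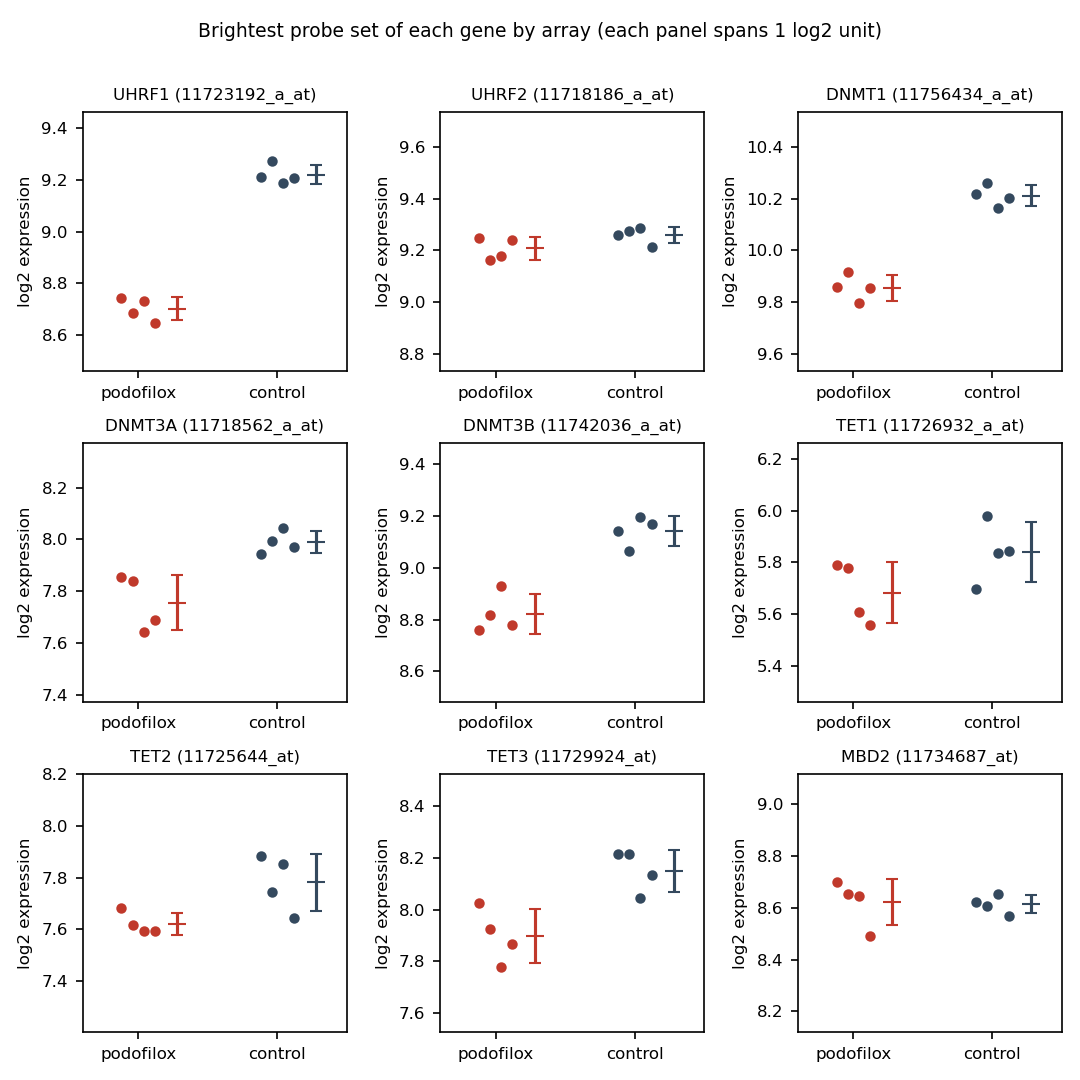
Log2 expression (y axis) on each podofilox array and each control array, for the brightest probe set of each of the 9 genes. Points are single arrays, the bar beside them is the mean ± SD (n = 4), and every panel spans the same range. UHRF1, DNMT1, DNMT3A, DNMT3B and TET3 are lower on all 4 podofilox arrays, while UHRF2 and MBD2 overlap.

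DNMT1, the enzyme that copies methylation after replication, fell on both of its probe sets. The brighter read 9.86, 9.92, 9.79 and 9.85 in podofilox cells, and 10.22, 10.26, 10.16 and 10.20 in control cells. No podofilox array reached the lowest control array. The difference was -0.36 (SE 0.05, 95% interval -0.46 to -0.25, limma adjusted p = 0.00063) and was -0.35 for arrays 1 and 2 alone and -0.36 for arrays 3 and 4 alone. The dimmer read 8.24, 8.35, 8.23 and 8.21 with podofilox against 8.67, 8.81, 8.47 and 8.53 without, and fell by 0.37 on the log2 scale (SE 0.07, limma adjusted p = 0.00651). The change of the brighter minus that of the dimmer was 0.01 (95% interval -0.12 to 0.15).

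Of the enzymes that methylate new sites, DNMT3B fell on 7 of its 11 probe sets and DNMT3A on 2 of 4. The brightest DNMT3B probe set read 8.76, 8.82, 8.93 and 8.78 with podofilox and 9.14, 9.06, 9.20 and 9.17 in control cells, without overlap, a difference of -0.32 (SE 0.05, limma adjusted p = 0.0025). Over the 11 probe sets, which share a gene and are not replicates, the differences ran from -0.32 to 0.10 with a median of -0.20. The 7 that fell were the 5 brightest and a pair of _x_at sets, whose probes may cross-hybridise. The calls of that pair and of probe set 11736975_a_at (-0.21) were fragile. When 1 array was left out, 11751190_x_at (-0.20) kept its call only without podofilox replicate 4, control replicate 1 or control replicate 2 (limma adjusted p up to 0.0969). Probe set 11752658_x_at (-0.19) kept it only without podofilox replicate 3 (limma adjusted p up to 0.108), and 11736975_a_at only without podofilox replicate 1 or control replicate 3 (limma adjusted p up to 0.0879). The 4 that did not pass had differences of -0.10, -0.14, -0.06 and 0.10.

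DNMT3A fell on its 2 brightest probe sets. The brightest probe set read 7.86, 7.84, 7.64 and 7.69 with podofilox against 7.95, 8.00, 8.04 and 7.97 without, a difference of -0.23 (SE 0.06, limma adjusted p = 0.0204). The groups do not overlap, and podofilox arrays 3 and 4 lie lowest. The difference was -0.12 within arrays 1 and 2 (limma adjusted p = 0.293) and -0.34 within arrays 3 and 4. Its call ended without podofilox replicate 4 or control replicate 3 (limma adjusted p up to 0.060). The next probe set held its call with any array left out, at -0.28 (SE 0.05, limma adjusted p = 0.00505), with 7.17, 7.16, 7.04 and 7.09 on podofilox arrays and 7.30, 7.38, 7.46 and 7.44 on control arrays. For arrays 1 and 2 alone it was -0.18 and did not pass (limma adjusted p = 0.174). A pair of dim DNMT3A probe sets gave -0.27 and 0.04 and did not pass. The lower of them, 11732775_a_at, passed without control replicate 2 (-0.37, limma adjusted p = 0.0214) and for arrays 3 and 4 alone (-0.46, limma adjusted p = 0.0409), and was -0.17 without control replicate 3. The changes of DNMT1, DNMT3A and DNMT3B were not told apart from each other. The exact permutation p of the 3 pairs was 0.0857 for DNMT1 minus DNMT3A (-0.12, SE 0.05), 0.686 for DNMT1 minus DNMT3B (-0.03, SE 0.07) and 0.40 for DNMT3A minus DNMT3B (0.09, SE 0.09).

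Of the 6 probe sets of the TET genes, which encode the oxidising enzymes, 1 fell (TET3) and 1 rose (TET2). The brighter TET2 probe set, which the platform ties to the RefSeq record NM_001127208.1 of a full-length transcript, read 7.68, 7.62, 7.59 and 7.59 in podofilox cells and 7.88, 7.74, 7.85 and 7.64 in control cells. These groups overlap, and the difference of -0.16 did not pass (95% interval -0.29 to -0.03, limma adjusted p = 0.0921). It passed without control replicate 4 (-0.20, limma adjusted p = 0.0454) and among probe sets above the median signal (limma adjusted p = 0.0382). The dimmer one, tied to NM_017628.3, the record of a shorter TET2 transcript whose protein lacks the catalytic domain, read 6.01, 5.65, 5.55 and 5.56 in podofilox cells and 4.83, 4.90, 4.84 and 4.86 in control cells. Every podofilox array lies well above every control array, with podofilox array 1 highest. It rose by 0.83 (1.78-fold, SE 0.09, 95% interval 0.63 to 1.04, limma adjusted p = 0.000268), and 49 of the 44988 probe sets had a rise at least as large. The rise was 0.73 without podofilox replicate 1, 0.96 for arrays 1 and 2 alone and 0.71 for arrays 3 and 4 alone. Where its probes lie on the transcript is not given in the sources used here.

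That the TET2 probe sets moved unequally was tested with limma on the difference between the brightest probe set and the mean of the others, over all 11734 genes with more than 1 probe set. This test was added after the data were seen. The change of the brighter minus that of the dimmer was -0.99 (SE 0.10, 95% interval -1.21 to -0.78, limma adjusted p = 0.00132), and 2.68% of all such genes passed this test, 1.66% with the brightest set lower and 1.02% with it higher. Within arrays 1 and 2 the value was -1.13 and within arrays 3 and 4 -0.86, and it passed in neither (limma adjusted p = 0.127 and 0.088). No other of the 8 genes with several probe sets passed, with -0.28 for UHRF1 (limma adjusted p = 0.0964) and -0.28 for TET3 (limma adjusted p = 0.0698) the nearest. The exact permutation test over these 8 genes has the same limit after adjustment, where 0 passed, and UHRF1, TET2 and TET3 reached the smallest unadjusted p of 0.0286.

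**Figure D3:**
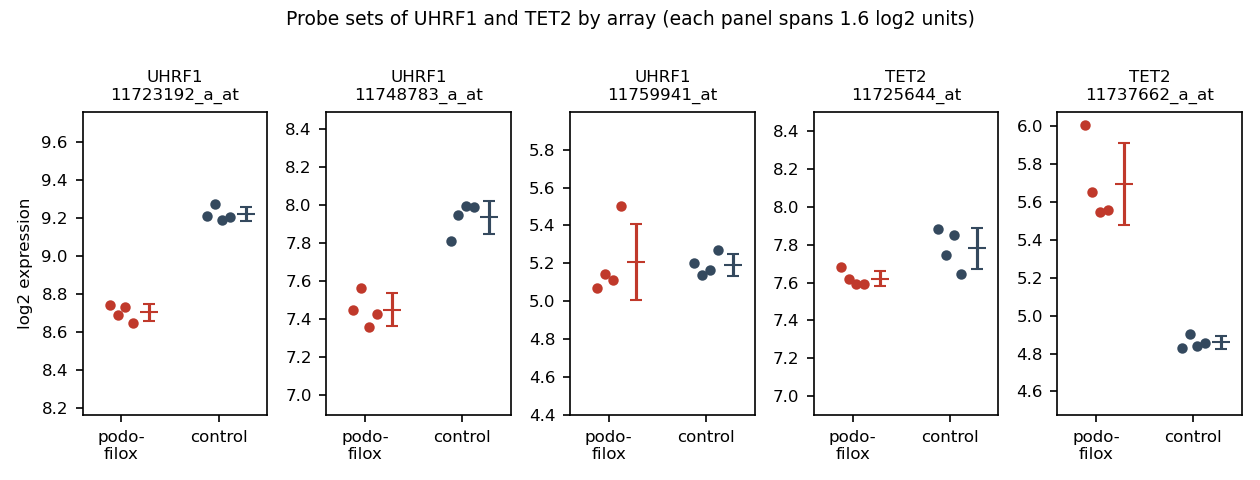
Log2 expression (y axis) on single podofilox and control arrays for the 3 probe sets of UHRF1 and the 2 of TET2, with the mean ± SD (n = 4) beside the points. The first 2 UHRF1 panels are lower with podofilox and the third overlaps. In the last panel the dimmer TET2 probe set is higher on all 4 podofilox arrays.

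TET3 fell on its brighter probe set, at 8.03, 7.92, 7.78 and 7.87 with podofilox against 8.21, 8.21, 8.04 and 8.13 without. The lowest control array lies just above the highest podofilox array. The difference was -0.25 (SE 0.06, limma adjusted p = 0.0212), and the call ended without podofilox replicate 4 or control replicate 1, 2 or 4 (limma adjusted p up to 0.0594). The dim TET3 probe set was at 4.95 ± 0.03 and 4.92 ± 0.07 in podofilox and control cells (SD, n = 4 each) and did not pass. TET1 was dim. Its brighter probe set averaged 5.68 ± 0.12 with podofilox and 5.84 ± 0.12 in control cells (SD, n = 4 each), a difference of -0.16 (limma adjusted p = 0.184), and the groups overlap. The other averaged 3.88 ± 0.22 with podofilox and 3.92 ± 0.19 in control cells (SD, n = 4 each), with a difference of 0.29 for arrays 1 and 2 alone and of -0.38 for arrays 3 and 4 alone, where it passed (limma adjusted p = 0.0415).

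MBD2, the reader, did not pass on any of its 4 probe sets. The brightest read 8.70, 8.65, 8.65 and 8.49 on podofilox arrays and 8.62, 8.61, 8.65 and 8.57 on control arrays, overlapping throughout (0.01, 95% interval -0.11 to 0.13, limma adjusted p = 0.935). The other 3 had differences of 0.12, 0.19 and 0.12. The first of these passed without control replicate 2, which lies apart on it (0.18, limma adjusted p = 0.0374), and with array weights (0.15, limma adjusted p = 0.046). The second of these, dim at 4.95, 5.03, 4.93 and 5.14 with podofilox against 4.83, 4.71, 4.87 and 4.87 without, did not overlap and narrowly missed the threshold (limma adjusted p = 0.0516). It passed without podofilox replicate 3 (0.22, limma adjusted p = 0.044), and also after centring each array on its median (limma adjusted p = 0.0317).

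The genes that work beside these enzymes were read from the brightest probe set of each gene, with p-values adjusted over 18132 genes, of which 12.5% fell and 8.55% rose. By this reading 5 of the 9 genes fell and 0 rose (also 0 rose at an unadjusted p under 0.05). With the mean of the probe sets of each gene 4 fell and 1 rose, as TET2 turned to 0.34 (limma adjusted p = 0.00298) and TET3 lost its call (-0.11, limma adjusted p = 0.103). By that mean UHRF1 fell by 0.33 and DNMT3B by 0.18 on the log2 scale. Of 15 measured partners of UHRF1 and DNMT1 at new DNA, 11 fell and 0 rose (0 also at an unadjusted p under 0.05), with a median difference of -0.22 against 0.01 over all genes. HELLS, a chromatin remodeller needed for DNA methylation, fell by 0.61 on the log2 scale (SE 0.07, limma adjusted p = 0.000358), with 8.48, 8.56, 8.54 and 8.43 in podofilox cells and 9.17, 9.30, 8.94 and 9.05 in control cells. CDCA7, which activates HELLS, fell by 0.38 (SE 0.04, limma adjusted p = 0.000215). The ligase LIG1 and the histone chaperone subunit CHAF1A fell by 0.31 and 0.33 (CHAF1A by 0.20 without probe sets of the _x_at and _s_at kind). USP7, which removes ubiquitin and stabilises UHRF1 and DNMT1, fell by 0.20 (limma adjusted p = 0.0143), and the sliding clamp PCNA by 0.28. HDAC1, HDAC2, CDCA7L and SUV39H1 did not pass. The count was 7 with the mean of the probe sets of each gene.

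Replication fork genes were set beside them. Of 28 genes for helicase, clamp loader and polymerases, 24 fell and 0 rose (0 also at an unadjusted p under 0.05), with a median of -0.25. MCM2 and MCM6 of the helicase fell by 0.56 and 0.40 on the log2 scale, GINS2, which completes the helicase, by 0.55, and the polymerase subunit POLE2 by 0.52. These genes were known from earlier results of these data to be lower. Whether the lower level of UHRF1 and the methyltransferases follows the level of replication genes was not tested.

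**Figure D4:**
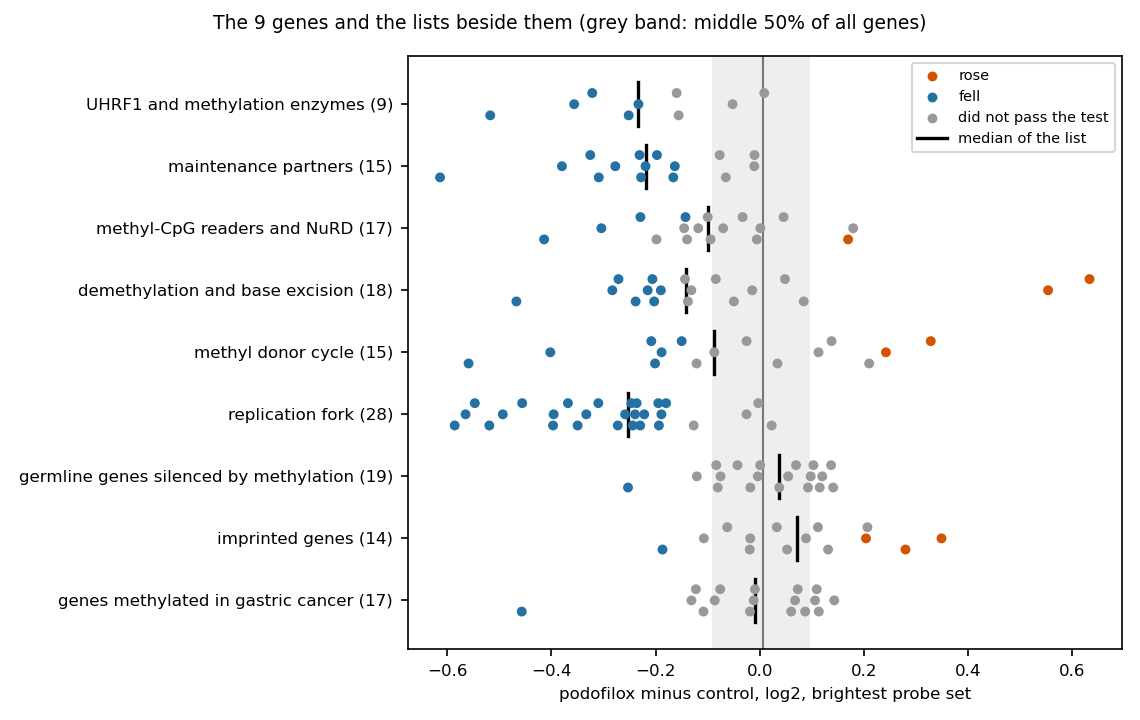
Difference between podofilox and control (log2, x axis) for the brightest probe set of each gene, in the 9 genes and in 8 lists, with the number measured in brackets. Points are genes, coloured by call, black bars are medians, and the grey band with its line is the interquartile range and the median of all genes. The 9 genes, the maintenance partners and the replication fork genes lie mostly left of the band. Germline genes and genes methylated in gastric cancer lie mostly within or close to it.

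Of 17 measured genes for other methyl-CpG readers and for subunits of the NuRD complex, 4 fell and 1 rose, with a median of -0.10. Over all 18132 genes 12.5% fell and 8.55% rose, and bright genes were called more often. In a test of only the genes above the median signal, 2593 fell and 1481 rose, against 2260 and 1550 with all tested. No list was matched for signal. MBD3, the NuRD paralog of MBD2, fell by 0.41 on the log2 scale (SE 0.05, limma adjusted p = 0.000358), at 8.31, 8.38, 8.29 and 8.34 with podofilox against 8.69, 8.86, 8.71 and 8.72 without. Without probe sets of the _x_at and _s_at kind MBD3 fell by 0.21 (limma adjusted p = 0.0143). MTA1 and the remodeller CHD3, both NuRD subunits, fell by 0.23 and 0.30. MBD4, a glycosylase that removes thymine from mismatches at CpG, rose by 0.17 (SE 0.04, limma adjusted p = 0.0128), a call that ended without control replicate 4 (limma adjusted p = 0.0507). Without that array 3 of the list had a call.

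Among 18 genes of base excision and TET partners, 8 fell and 2 rose, where 12.5% of all genes fell and 8.55% rose. UNG, which removes uracil from DNA, fell by 0.47 on the log2 scale (SE 0.06, limma adjusted p = 0.000356), and APEX1, which cuts the site left behind, by 0.27. TDG, the glycosylase that removes the products of TET oxidation, did not pass (-0.14). The 2 that rose were GADD45B (0.63, SE 0.04, limma adjusted p = 1.88e-05) and GADD45A (0.55, SE 0.04, limma adjusted p = 2.59e-05), stress-induced genes that have been linked to demethylation. GADD45B lay between 8.99 and 9.08 on podofilox arrays and between 8.35 and 8.44 on control arrays, and the mean of its probe sets rose by 0.33. OGT, which binds the TET proteins, fell by 0.28, and the 2-oxoglutarate producers IDH1 and IDH2 did not pass (-0.14 and -0.01).

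Of 15 measured genes for enzymes of the methyl donor and folate cycles, 6 fell and 2 rose. By the same test 12.5% of all genes fell and 8.55% rose. MAT2A, which makes the methyl donor S-adenosylmethionine, fell by 0.56 on the log2 scale (SE 0.04, limma adjusted p = 3.36e-05). It read 10.63, 10.59, 10.69 and 10.65 in podofilox cells and 11.23, 11.22, 11.15 and 11.20 in control cells, a clear gap. MTHFD1 of the cytosolic folate cycle fell by 0.40 and SHMT2, which takes a carbon unit from serine in mitochondria, by 0.19, while the mitochondrial enzyme MTHFD2 rose by 0.33 (SE 0.05, limma adjusted p = 0.0015). AHCY, which clears the inhibitory product of methylation, did not pass (-0.12).

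Also read were germline genes whose silence in somatic cells is known to depend on DNA methylation. Whether they are methylated in AGS cells was not measured. Of 19 measured germline genes, 0 rose by limma and also 0 at an unadjusted p under 0.05, and 1 fell, with a median of 0.04. Of all genes 8.55% rose and 12.5% fell. The brightest gene of the list averaged 6.16, below the median of all probe sets (6.45). Differences ran from -0.25 to 0.14 and the mean level of the list was 4.25 to 4.30 on podofilox arrays and 4.24 to 4.27 on control arrays, below the lower quartile of all probe sets (4.63). Near the floor of the array, small rises may not be detectable. SYCE1, the 1 that fell (-0.25, SE 0.08, limma adjusted p = 0.0444), is a synaptonemal complex gene. When 1 array was left out, its call held only without podofilox replicate 4 or without control replicate 1 (limma adjusted p up to 0.116). MAEL, SYCP3 and HORMAD1, all germline genes, gave 0.10, 0.12 and 0.10 and did not pass.

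Of 14 imprinted genes 3 rose and 1 fell, where 8.55% of all genes rose and 12.5% fell. GRB10, an adaptor that restrains growth factor signalling, rose by 0.35 (SE 0.05, limma adjusted p = 0.000633), the placental growth regulator PHLDA2 by 0.28 and the cell cycle inhibitor CDKN1C by 0.20. L3MBTL1 was called lower on its dim brightest probe set (-0.19, limma adjusted p = 0.0284), but the mean of its probe sets was 0.005 (limma adjusted p = 0.964). Its call ended without podofilox replicate 2 or 4 or control replicate 2 or 4. Of 17 genes known for promoter methylation in gastric tumours 1 fell and 0 rose (1 rose at an unadjusted p under 0.05). The gut transcription factor GATA5 fell by 0.46 on the log2 scale (SE 0.09, limma adjusted p = 0.00485), with 6.94, 7.02, 6.70 and 6.60 in podofilox cells against 7.22, 7.22, 7.35 and 7.29 in control cells. For arrays 1 and 2 alone it was -0.24 and did not pass (limma adjusted p = 0.0807), and the mean of its probe sets differed by -0.25. CDH1, MGMT and TIMP3 did not pass (0.11, -0.12 and 0.14), and without control replicate 2 the list had 3 calls.

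The 5 genes whose course over the 8 arrays was nearest to that of UHRF1 were RPP40, SAMD5, HNRNPU, IQCE and UBE3C. Nearness was the root mean square difference between profiles, each centred on its own mean, over 18123 other genes, and it was 0.030, 0.030, 0.033, 0.036 and 0.036 log2 units. RPP40 encodes a subunit of ribonuclease P and read 7.05, 7.02, 7.06 and 6.95 with podofilox and 7.51, 7.51, 7.51 and 7.55 without. Differences of the 5 ran from -0.56 (IQCE) to -0.49 (SAMD5). Values near the -0.52 of UHRF1 were fixed by the way the 5 were chosen and are not a separate result. With the mean of the probe sets of a gene, IQCE differed by -0.15 and HNRNPU by -0.28, and UBE3C by -0.09 without passing (limma adjusted p = 0.188).

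The arrays carried the profile of epithelial cells. EPCAM averaged 12.95 with podofilox and 12.78 in control cells, and KRT8, KRT18 and KRT19 lay at 13.18 to 13.37 with podofilox and 13.16 to 13.28 without. Of 8 epithelial markers 3 rose (CLDN4, CLDN7 and ELF3, by 0.50, 0.37 and 0.27), and the mean of the list was 12.08 to 12.11 on podofilox arrays and 11.88 to 11.94 on control arrays. The epithelial cadherin CDH1 was at 7.52 with podofilox and 7.41 without. Fibroblast markers averaged 4.61 to 4.74 on podofilox arrays and 4.53 to 4.71 on control arrays, and 0 of 6 passed (2 at an unadjusted p under 0.05). The leukocyte gene PTPRC was at 3.49 with podofilox and 3.62 without, and 0 of 5 immune markers passed (1 at an unadjusted p under 0.05), although LYZ, which gastric epithelium also makes, was at 13.62 with podofilox and 13.60 without. Of 6 endothelial markers CDH5 fell (-0.44, limma adjusted p = 0.0209) on a dim probe set. The other 5 had differences from 0.003 to 0.18 and did not pass (1 of them, ESAM, was higher at an unadjusted p under 0.05). Not all of the list was dim. ESAM was at 8.59 with podofilox and 8.41 without, above the upper quartile of all probe sets (8.38). KDR was at 6.95 with podofilox and 6.93 without, above the median (6.45). The part of these markers in the results was not tested.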

How the data were processed

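Total RNA of AGS cells was hybridised to 8 Affymetrix arrays, 4 with podofilox and 4 controls, grouped by the treatment in the labels. The deposited log2 values were made by the authors with RMA, per the submitters' processing notes. RMA is a method that corrects background, normalizes between arrays and summarises the probes of a set. The software version is not given in the sources used here. Its normalization brings the arrays to a like distribution, so differences are relative to the bulk of the probe sets. The table held 49395 probe sets, and 102 manufacturer controls, 1832 sets of several genes and 2473 unnamed ones were left out, leaving 44988 of which 44961 matched RefSeq by Entrez ID. No filter on low signal was used. The number of arrays limits the precision.

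For differences, lmFit and eBayes of limma (version 3.58.1, under R 4.3.3) were used (two-sided, Benjamini-Hochberg adjusted p under 0.05), over all single-gene probe sets and over the brightest probe set of each of 18132 genes. The procedure was tested on simulated data over 44988 probe sets. For podofilox minus control it found 33 of 40 changes of -0.5 and 32 of 40 of 0.5. Of the smaller changes it found 10 of 40 of -0.25 and 7 of 40 of 0.25. Far fewer probe sets were changed there than the 8112 called in the arrays, which makes the adjusted threshold stricter in the simulation. The share of small changes missed in the arrays was therefore not measured. Pairs of genes, and probe sets within a gene, were compared by exact permutation over the 70 arrangements of the arrays. The labels number the replicates but name no pairing, and the main fit did not pair the arrays. Deviations of same-numbered arrays correlated at -0.14, 0.04, -0.25 and 0.04, and those of differently numbered arrays at -0.14 to 0.25. With 4 arrays a group this cannot show whether arrays were handled in pairs. With the replicate number as a block 5581 single-gene probe sets were called, against 8112 without. The text names all probe sets of the 9 genes, in each list the up to 4 genes with the smallest p, the 5 profiles nearest to UHRF1 and the cell type markers. USP7, PCNA, HDAC1, HDAC2, CDCA7L, SUV39H1, TDG, OGT, IDH1, IDH2 and AHCY were named in addition, after their values were seen, for what they do. The members and lists were chosen with earlier results of these data known. Some further genes of the lists are not reported here. Promoters were taken from RefSeq (GRCh38.p14) for all 9 genes, and matplotlib 3.10.9 (Python 3.11.15) drew the plots. Alternatives changed the choice of probe sets, the filter, the normalization, the variance model, array weights, blocks and the arrays used.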

Additional observations from a re-analysis of the deposited data

Results flagged for a closer look

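In 2 of the 62 groups of 4 values examined over the 31 probe sets, 1 array lay far from the other 3 by Dixon's test, where chance gives about 1 in 20. Control array 3 read 8.94 on DNMT3B probe set 11736975_a_at, with the nearest control array at 9.11. Control array 2 read 6.56 on MBD2 probe set 11731288_a_at, with the nearest control array at 6.34.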

How the results depend on the processing

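Counts of calls are given against the values of the report: 8112 single-gene probe sets, 15 of the 31, 3810 genes, 5 of the 9 genes, 11 maintenance partners, 5 readers and NuRD genes, 10 demethylation genes, 8 donor genes, 24 replication genes, 1 germline, 4 imprinted and 1 gastric methylated gene, and 315 genes with unequal probe sets. Within arrays 1 and 2 alone, which leaves 2 arrays a group, they were 2705, 6, 1010, 2, 5, 1, 3, 2, 10, 0, 2, 0 and 1. Within arrays 3 and 4 alone, those that moved by over 1.5 times were 4642 probe sets, 2300 genes, 5 partners, 3 readers, 5 demethylation, 4 donor, 14 replication, 0 germline and 2 imprinted genes, and 1 gene with unequal probe sets. With the replicate number as a block, 13 of the 31 probe sets, 4 of the 9 genes, 7 partners, 3 readers, 0 germline genes and 85 genes with unequal probe sets were called, and DNMT3A lost its call as a gene (adjusted p = 0.0514). Without probe sets of the _x_at and _s_at kind 5243 were called, with fewer tested. With the mean of the probe sets of a gene, 7 partners and 0 germline genes were called, L3MBTL1 turned to 0.005, and TET2 turned to 0.34 (adjusted p = 0.00298). Above the median signal 8 readers and 2 gastric genes were called, with array weights 9 and 5, and with an intensity trend and robust estimation 2 gastric genes. No germline gene was left above the median signal. Leaving out 1 array at a time gave 5650 to 7419 probe sets, 11 to 14 of the 31, 2706 to 3590 genes, 4 to 6 of the 9, 8 to 10 partners, 3 to 6 readers, 7 to 10 demethylation genes, 6 to 9 donor, 19 to 24 replication, 0 to 1 germline, 3 to 4 imprinted and 1 to 3 gastric genes, and 138 to 240 with unequal probe sets. With 1 array left out, exact permutation over pairs cannot go below 0.0571. Of 889 values of single genes or probe sets under the other alternatives, 821 kept direction and side of the threshold, 51 lost a call, 15 gained one and 2 reversed. The causes were not tested.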
